A study of Mus musculus with 6 samples.

Results

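Ribosomal protein genes were compared between sorted bone marrow cells of young and old mice. The genes were those of the 2 subunits of the cytosolic ribosome: every probe was taken whose RefSeq transcript belongs to a gene named Rpl or Rps plus a number, Rplp or Rpsa, leaving out the Rps6k kinases, Rps19bp1 and names with a pseudogene ending. This gave 85 genes with 173 probes, out of 37163 gene names and 55681 probes on the array. The RefSeq gene table holds 94 genes that meet the rule, and 9 of them, including Rps23, were matched by no probe. A test was possible for 84 genes. The exception was Rpl3l, the copy of Rpl3 known from striated muscle, which was well above background on 1 array.

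The cells came from C57BL/6 mice, with 3 samples from animals aged 3 months, called young, and 3 from animals aged 24 months, called old. The labels call them mesenchymal stem cells of the bone marrow, name no genetic change and no treatment, and do not name the markers of the sort. Whether each sample is its own animal is not stated, and a p-value therefore refers to the variation among the samples, some of it possibly technical. All arrays were on 1 slide with the young samples in 1 row and the old samples in the other, so that slide row and age cannot be told apart.

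Each ribosome has a large and a small subunit, built from ribosomal RNA and one copy of most ribosomal proteins, and the stalk proteins on the large subunit recruit the factors that drive elongation. The messages of ribosomal proteins begin with a stretch of pyrimidines, the TOP motif, through which growth signals that pass Mtor control their translation together. They are among the most abundant messages of blood-forming and other growing cells, and inherited loss of 1 copy of several of them causes Diamond-Blackfan anaemia, a failure of red cell formation.

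The label was only partly borne out by its markers. Of 17 genes of mesenchymal stem cells and stroma, 8 exceeded background clearly on each of the 6 arrays and 6 did so on none, namely Pdgfra, Pdgfrb, Prrx1, Twist1, Itgav and Foxc1. For erythroid genes this count was 11 of 11 and for neutrophil genes 12 of 12. The old arrays had less signal: their 75th percentile, on the unscaled scale, lay between 229.4 and 318.8, and that of the young arrays between 314.8 and 393.5. All values below, unless stated otherwise, are log2 signals relative to the 75th percentile of the same array.

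On this scale 83 of the 84 tested ribosomal protein genes had a positive log2 fold change, old minus young, with a median of 0.27. The direction depended on how the arrays were scaled, as described further below. Without scaling 2 of the 84 were positive, against 2449 of all 23266 tested genes. After quantile normalization 44 of the 84 were positive, against 12262 of all 23266. None of the 84 was called higher in old samples at an adjusted p under 0.05, where 4.38% of all tested genes were. The test was limma with Benjamini-Hochberg adjustment over 23266 genes (n = 3 and 3). Of the 84, 1 was called lower, the transcribed copy Rps4l, where 4.01% of all genes were. At an unadjusted p under 0.05 there were 54 of the 84, against 28.9% of all genes. All 3 old arrays lay above all 3 young arrays in 66 of the 84, against 24.9% of all genes, and below them in 1, Rps4l, against 12.2%. Here and below, such counts leave out genes without a value on every array, such as Rpl11. The median over all tested genes was 0.08, and 62.6% of them had a positive value. The 84 genes had passed a filter on dim probes that took no account of age.

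By array, the median signal of the 84 genes was 8.93, 9.04 and 8.96 for the 3 young arrays and 9.14, 9.25 and 9.33 for the 3 old arrays, both given as replicates 1, 2 and 3. The groups did not overlap on this scale, and the SD within groups was 0.08. On the unscaled processed signal the same medians were 183839, 207298 and 156734 in the young samples and 179862, 151965 and 147575 in the old samples. Unscaled, the groups overlapped, and the 2 lowest medians were from old samples.

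**Figure D1:**
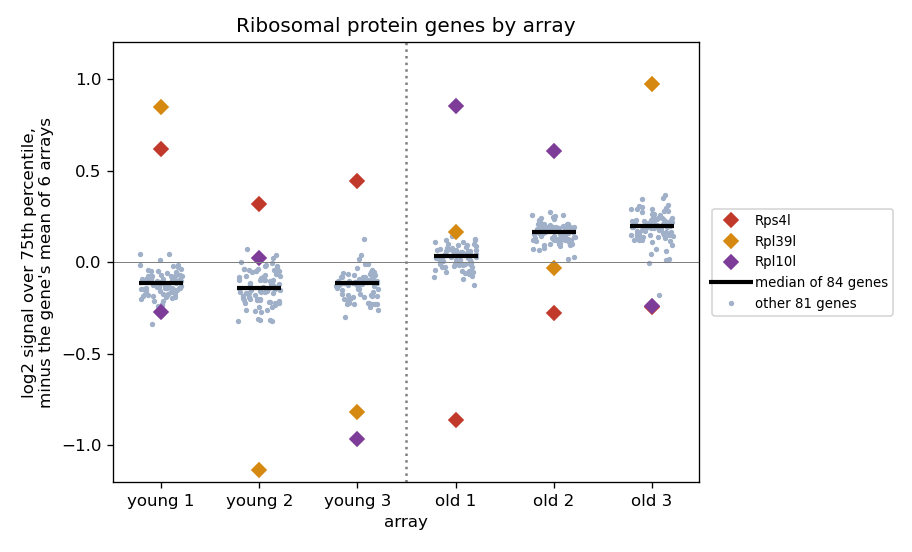
Signal of each ribosomal protein gene on each of the 6 arrays, as log2 over the array's 75th percentile minus the gene's mean over the arrays; small points are 81 genes, black bars the median of 84, and diamonds 3 named copies. The small points of the old arrays lie mostly above those of the young arrays on this scale, by a median fold change of 0.27, whereas without scaling the median is -0.18; the 3 young points of Rps4l lie above 0 and its 3 old points below 0.

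Promoters are shown because the start of these messages carries the TOP motif. RefSeq (GRCm38.p6) gave 76 entries for 64 of the 85 genes, each with 250 bases before and 50 after the annotated start, among 32851 entries in all. Searched on both strands, the pyrimidine run CTCTTTC stood in 26.3% of the entries of ribosomal protein genes and in 8.16% of all entries. CGGAAG, the core letters of an Ets family site, stood in 60.5% against 16.9%. AAGATGGC, core letters of a Yy1 site, stood in 10.53% against 2.75%, and TATAAA in 9.21% against 13.6%. None of these motifs holds another, and a match is a description of letters, not of a bound site. The sequences below give the 40 bases before and the 20 from the annotated start of 8 genes, on the gene's strand. Capitals mark matches to the searched motifs on either strand; in the first 3 sequences these are the pyrimidine run at the start, in Rps6 and Rps18 the Ets letters, and in Rpl22l1 the TATA letters on both strands, while the windows of Rpl7l1 and Rps4x hold none.
Rpl35 (chr2:39005112-39005171, minus strand): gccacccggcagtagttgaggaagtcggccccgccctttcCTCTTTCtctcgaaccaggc
Rpl28 (chr7:4792925-4792984, plus strand): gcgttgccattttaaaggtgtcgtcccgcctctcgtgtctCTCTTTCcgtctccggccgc
Rpl18 (chr7:45718031-45718090, plus strand): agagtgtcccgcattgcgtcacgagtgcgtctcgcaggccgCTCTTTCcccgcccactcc
Rps6 (chr4:86857348-86857407, minus strand): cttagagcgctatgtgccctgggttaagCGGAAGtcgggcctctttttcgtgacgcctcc
Rps18 (chr17:33955646-33955705, minus strand): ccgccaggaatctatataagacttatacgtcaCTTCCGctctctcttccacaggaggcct
Rpl22l1 (chr3:28805468-28805527, plus strand): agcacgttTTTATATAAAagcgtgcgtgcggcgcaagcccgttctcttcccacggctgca
Rpl7l1 (chr17:46782637-46782696, minus strand): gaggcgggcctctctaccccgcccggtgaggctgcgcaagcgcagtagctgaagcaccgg
Rps4x (chrX:102189372-102189431, minus strand): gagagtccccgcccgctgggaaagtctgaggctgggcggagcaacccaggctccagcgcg
The tested genes with CTCTTTC in the window had a median log2 fold change of 0.26 (17 genes) and those without it 0.28 (46 genes). For CGGAAG the medians were 0.28 with (43 genes) and 0.27 without (20 genes). Rpl35, Rpl28, Rpl18 and Rps18 were chosen for display after their values were seen.

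The stalk proteins were Rplp0, Rplp1 and Rplp2. Rplp0, the base of the stalk, gave 10.03, 9.98 and 10.09 in young samples and 10.20, 10.36 and 10.40 in old samples, here and below in the order of the replicate numbers. The groups did not overlap, and the log2 fold change was 0.28 ± 0.09 (SE, n = 3 and 3; limma adjusted p = 0.109). Rplp1 gave 9.50, 9.52 and 9.51 in young and 9.74, 9.89 and 9.99 in old samples, and Rplp2 gave 9.69, 9.68 and 9.75 against 9.90, 10.08 and 10.10. Their fold changes were 0.36 ± 0.09 (adjusted p = 0.0662) and 0.31 ± 0.09 (adjusted p = 0.0848), again without overlap. The Rplp0 value turned to -0.03 after quantile normalization and to -0.02 in the authors' deposited table.

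All 43 genes of the large subunit had positive values on the scale of the 75th percentile, with a median of 0.27 and a range of 0.06 to 0.39, none called. All old arrays lay above all young arrays in 37 of the 43, not counting Rpl11, which lacked a value on 1 young array. This share was 24.9% over all tested genes and 78% over other genes with a mean signal of 8 or more. Rpl5, Rpl11 and Rpl23 are proteins that can bind Mdm2 and so link the ribosome to Trp53. Rpl5 had one of the smallest changes, with 7.71, 7.77 and 7.63 in young samples and 7.70, 7.83 and 7.75 in old samples. These groups overlapped, and the fold change was 0.06 ± 0.08 (adjusted p = 0.696). It was negative after quantile normalization (-0.12), cyclic loess (-0.11) and normexp background correction (-0.03) and in the authors' deposited table (-0.14). Rpl11 was measured on 5 arrays, since its spot on young replicate 3 had been marked as an outlier, and gave 9.74 and 9.67 in young against 9.94, 10.01 and 10.02 in old samples (0.29 ± 0.09, adjusted p = 0.124). Rpl23 gave 9.19, 9.10 and 9.44 against 9.46, 9.67 and 9.66 (0.35 ± 0.12, adjusted p = 0.121). Both were above all their young values on each old array, and Rpl11 became -0.03 after quantile normalization, although Rpl23 in young replicate 3 came close to its lowest old value.

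Other large subunit proteins named by role had values between 0.17 and 0.38. Rpl13a, which is also known as a released translational repressor in inflammation, gave 8.65, 8.88 and 8.88 in young and 9.11, 9.09 and 9.34 in old samples (0.38 ± 0.11, adjusted p = 0.0932). Rpl38, known for its role in translation of Hox messages, gave 9.45, 9.35 and 9.31 against 9.58, 9.69 and 9.84 (0.34 ± 0.10, adjusted p = 0.0896). Rpl41, the shortest of the ribosomal proteins, gave 9.87, 9.74 and 9.89 against 10.03, 10.27 and 10.22 (0.34 ± 0.10, adjusted p = 0.0885). None of these groups overlapped and none of the differences passed. Rpl35a, one of the genes of Diamond-Blackfan anaemia, gave 8.39, 8.34 and 8.38 against 8.49, 8.65 and 8.76 (0.26 ± 0.10, adjusted p = 0.139). Rpl10, which joins the subunit late, gave 9.81, 9.77 and 9.82 against 9.83, 10.05 and 10.02 (0.17 ± 0.09, adjusted p = 0.273), and was negative after quantile normalization (-0.11), after cyclic loess (-0.04) and in the authors' deposited table (-0.12). Rpl35, whose start carries the pyrimidine run shown above, had the brightest probe of the family, with a highest processed signal of 449589 against the value of 779640 that the file headers give for saturation.

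All 30 genes of the small subunit had positive values on the scale of the 75th percentile as well, with a median of 0.26 and none called. There was no overlap in 23 of the 30, against 24.9% of all tested genes and 78% of other genes with a mean signal of 8 or more. The value with the lowest adjusted p among all subunit and stalk genes was that of Rps27a, which encodes ubiquitin fused to a ribosomal protein. It gave 9.81, 9.84 and 9.90 in young and 10.10, 10.28 and 10.34 in old samples, a fold change of 0.39 ± 0.09 (1.31-fold, adjusted p = 0.0569). All its old values were above all its young values, and young replicate 3 was nearest to them. Rpsa, also known as a laminin receptor, gave 9.91, 9.60 and 9.79 against 9.84, 10.18 and 10.21 (0.31 ± 0.14, adjusted p = 0.202). Its groups overlapped through young replicate 1 and old replicate 1. Rps6, the substrate of the S6 kinases, gave 9.04, 9.03 and 9.01 against 9.09, 9.19 and 9.24 (0.15 ± 0.08, adjusted p = 0.287), and was negative after quantile normalization (-0.11) and cyclic loess (-0.05) and in the authors' deposited table (-0.11). Rps3, which also acts in DNA repair, gave 8.35, 8.44 and 8.26 against 8.38, 8.65 and 8.57 with overlap (0.18 ± 0.11, adjusted p = 0.302), and was negative after quantile normalization (-0.05) and in the authors' deposited table (-0.04). Rps7, outside the rule for named genes, had the smallest value of the small subunit, 0.07 ± 0.08.

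Of the small subunit genes of Diamond-Blackfan anaemia, Rps19 gave 7.65, 7.84 and 7.71 in young and 7.90, 7.95 and 7.96 in old samples (0.20 ± 0.09, adjusted p = 0.183). Rps24 gave 9.46, 9.24 and 9.50 against 9.51, 9.74 and 9.93 (0.33 ± 0.14, adjusted p = 0.176). In Rps24 the highest young and the lowest old array nearly met, while the old arrays of Rps19 all lay above the young ones. Rps26 gave 9.23, 9.15 and 9.21 against 9.35, 9.45 and 9.51 (0.24 ± 0.08, adjusted p = 0.125), and was negative after quantile normalization (-0.06) and in the authors' deposited table (-0.03). None of these genes passed the threshold.

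Beside the standard proteins, 9 copies were on the array. Their changes were less alike, with values between -0.92 and 0.81 in the 8 that were tested. Rps4l (NR_003634), which RefSeq lists as a transcribed pseudogene and a copy of Rps4x, was lower in old samples. It gave 0.71, 0.41 and 0.54 in young samples and -0.77, -0.18 and -0.15 in old samples. Every old array was below every young array, and old replicate 1 was lowest. The unscaled processed signals were 616, 523 and 457 in young and 187, 221 and 207 in old samples, well above background on all 6 arrays. The log2 fold change was -0.92 ± 0.19 (SE, n = 3 and 3; limma adjusted p = 0.0410). Rps4x, the X-linked gene that encodes the protein, gave 8.06 ± 0.06 in young and 8.20 ± 0.11 in old samples (SD, n = 3 each), with overlap and a fold change of 0.14 ± 0.09 (adjusted p = 0.364). The value of Rps4x was -0.06 after quantile normalization, -0.03 after cyclic loess and -0.07 in the authors' deposited table. The change of Rps4l minus that of Rps4x was -1.06 on the main scale. Rps4l has 1 probe, and whether that probe picks up related transcripts was not tested.

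The change of Rps4l kept its sign and its call when the scaling was altered. It was -0.95 (adjusted p = 0.0441) after quantile normalization, where 3.86% of all genes were called lower. After cyclic loess it was -0.99 (adjusted p = 0.0394, with 3.85% of all genes), in the authors' deposited table -0.98 (adjusted p = 0.0362, with 4.34%) and after normexp -0.76 (adjusted p = 0.00934). Without scaling it was -1.37 (adjusted p = 0.000904), where 2307 genes were called lower. It was lost without young replicate 1 (adjusted p = 0.0970), young replicate 2 (0.0986), young replicate 3 (0.105), old replicate 2 (0.0900) or old replicate 3 (0.0872), and kept without old replicate 1 (-0.72, adjusted p = 0.0453). Without the filter on dim probes its adjusted p was 0.0542.

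**Figure D2:**
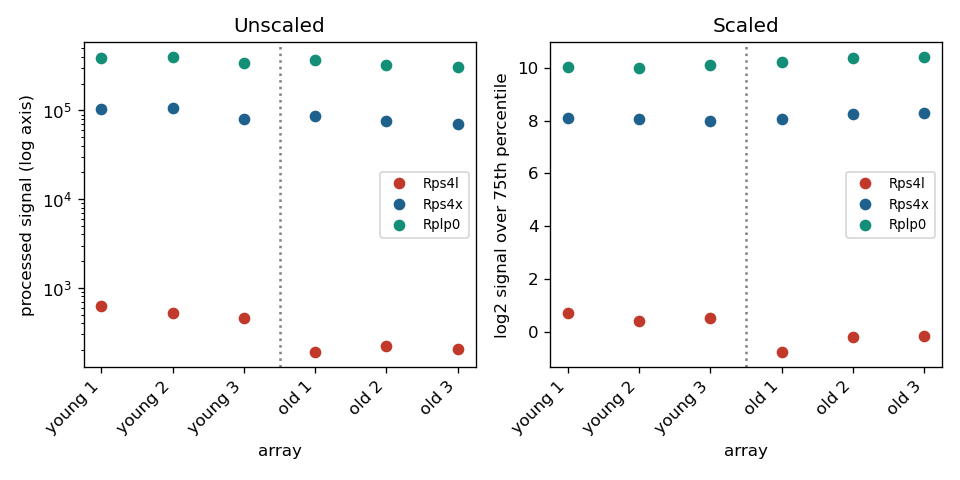
Rps4l, its parent gene Rps4x and the stalk gene Rplp0 on each array, at left as processed signal on a log axis and at right as log2 signal over the array's 75th percentile; levels of different probes cannot be compared. The 3 old values of Rps4l, from 187 to 221 unscaled, lie below its 3 young values, from 457 to 616, in either panel.

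The remaining copies did not pass. Rpl36al, an intronless copy of Rpl36a, gave 7.12, 7.31 and 7.13 in young and 7.50, 7.54 and 7.55 in old samples, without overlap (0.35 ± 0.09, adjusted p = 0.0646), beside 0.13 ± 0.08 for Rpl36a. Rpl22l1 gave 7.33, 7.38 and 7.49 against 7.44, 7.57 and 7.53, with overlap (0.11 ± 0.09, adjusted p = 0.438), beside 0.31 ± 0.08 (adjusted p = 0.0683) for Rpl22, the RNA-binding protein it can replace. Rps27l, known as a target of Trp53, gave 7.22, 7.22 and 7.20 against 7.34, 7.37 and 7.27 (0.11 ± 0.08, adjusted p = 0.386), beside 0.29 ± 0.08 for Rps27. Rpl7l1, a protein of ribosome assembly related to Rpl7, gave 0.55, 0.70 and 0.85 against 0.83, 0.85 and 0.54 (0.04 ± 0.13, adjusted p = 0.857), beside 0.24 ± 0.08 for Rpl7. In the last 3 pairs the copy had the smaller value and in the first the larger, a description with no test of the difference. The values of Rpl22l1, Rps27l, Rpl7l1 and Rpl36a became negative after quantile normalization, after cyclic loess and in the authors' deposited table, except that of Rpl7l1 after quantile normalization.

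Rpl10l and Rpl39l, copies known from male germ cells, were dim. Rpl10l was well above background on 2 young and 2 old arrays and gave -4.47, -4.18 and -5.16 in young against -3.35, -3.59 and -4.44 in old samples, with overlap (0.81 ± 0.36, adjusted p = 0.200). Rpl39l gave -1.43, -3.41 and -3.09 against -2.11, -2.31 and -1.30, with young replicate 1 above 2 of the old arrays (0.73 ± 0.56, adjusted p = 0.426). Their parents Rpl10 and Rpl39 had values of 0.17 ± 0.09 and 0.24 ± 0.10. Rpl10l was called higher under normexp alone (0.50, adjusted p = 0.00934), a setting that called 9.98% of all genes higher. Rpl3l gave -4.32, -5.09 and -4.23 in young and -5.11, -5.94 and -5.99 in old samples and was not tested. Rps23rg1, a retrogene of Rps23, gave 0.03, -0.06 and -0.10 against 0.08, 0.31 and 0.38 (0.30 ± 0.11).

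The shift of the family was set beside genes of like brightness, since 70 of the 84 genes had a mean signal of 8 or more. These 70 had a median log2 fold change of 0.28, all positive, with no overlap in 59, or 84.3%. The 473 other genes as bright had a median of 0.25, with 97.5% positive, no overlap in 78% and 1.48% called higher. Most of the 473 carry no symbol, or one that begins with Rpl, Rpsa or Rps plus a number. Which of these are copies of ribosomal protein genes was not tested. The 100 that carry another symbol had a median of 0.21, with 92% positive and no overlap in 55%. An unadjusted p under 0.05 (limma) was found in 42% of these 100, against 49 of the 70. At a signal of 8 to 9, the medians were 0.23 for 27 ribosomal protein genes and 0.14 for 53 other named genes; at 9 to 10 they were 0.29 for 32 and 0.26 for 32; and at 10 and above 0.29 for 11 and 0.40 for 15. In the brightest range other named genes thus had the larger median. From signals of 2 to 4 upward, the median of all other genes went from 0.06 over 0.09 and 0.16 to 0.22, 0.28 and 0.36 as the signal grew.

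**Figure D3:**
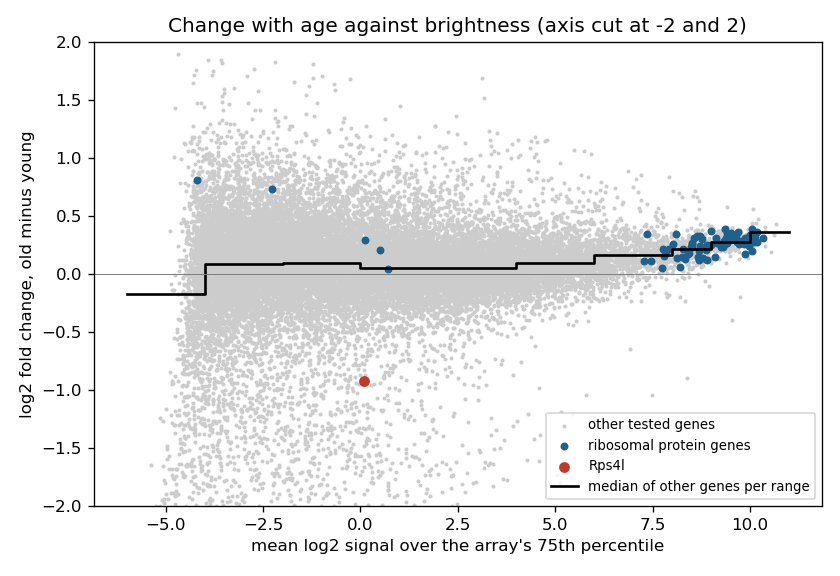
Log2 fold change, old minus young, of each tested gene against its mean log2 signal over the array's 75th percentile; blue points are ribosomal protein genes, grey points other genes, and the black line the median of the other genes in each range of signal (262 genes beyond -2 or 2 are not drawn). Most ribosomal protein genes lie at the right, at a signal of 8 or more, with a median of 0.28 near the line of the other genes there, on a scale that sets their sign.

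Scaling decided the sign of the family's median. It was 0.27 with the 75th percentile and 0.24 with the array median. It was -0.18 with no scaling, where all genes had a median of -0.37, and 0.0033 after quantile normalization, where all genes had 0.015. Cyclic loess gave 0.07 with 65 of 84 positive, against 11437 of all 23266 genes. The authors' deposited values gave 0.0042 with 49 of 84 positive, against 10459 of all 21513 genes there. Normexp gave 0.19 with 81 of 84 positive, against 16033 of all 23266 genes. Relative to the median of all tested genes, the family's median was higher by 0.18 with the 75th percentile and by 0.18 without scaling, by 0.07 after cyclic loess and after normexp, and by 0.01 in the authors' deposited table, and was -0.01 relative to it after quantile normalization. For the other named bright genes the medians were -0.24 without scaling, -0.03 after quantile normalization and 0.02 after cyclic loess. The sign of the 2 medians differed after quantile normalization and in the authors' deposited table, where both were near 0.

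**Figure D4:**
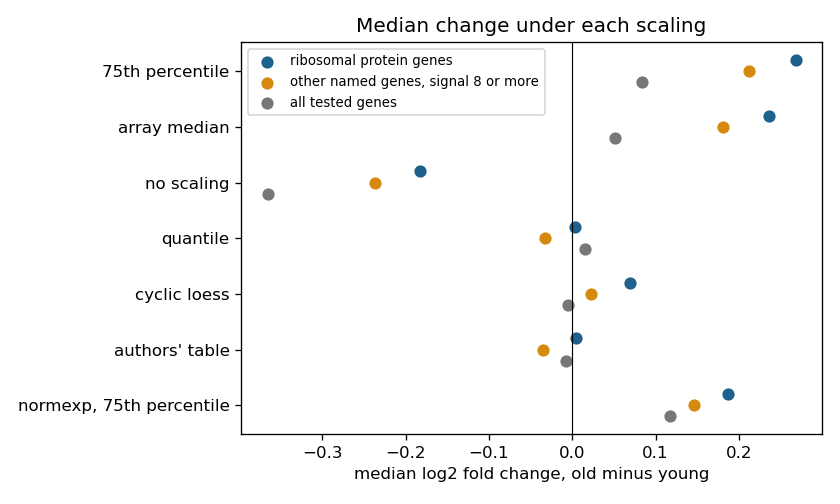
Median log2 fold change, old minus young, of 84 ribosomal protein genes, 100 other named genes with a signal of 8 or more and all tested genes, under 7 ways of scaling or correcting the arrays. The ribosomal protein median runs from -0.18 without scaling to 0.27 with the 75th percentile and is 0.0033 after quantile normalization and 0.0042 in the values the authors deposited.

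The count of calls depended on how the variance was modelled. With a variance that may depend on intensity, limma called 48 of the 84 genes higher, where it called 9.26% of all genes, 31% of the 100 other named bright genes higher, and 49.3% of all 473 other bright genes, and Rps4l remained the only 1 called lower. The fold changes were the same in that fit, and the SE of Rps27a went from 0.09 to 0.07. When only genes well above background on all 6 arrays were tested, Rps27a, Rps2 and Rpl36 were called higher (adjusted p = 0.0433, 0.0479 and 0.0497), with 6.96% of all genes. Rps2 gave 9.26, 9.18 and 9.28 in young and 9.52, 9.57 and 9.56 in old samples, and Rpl36 gave 9.37, 9.31 and 9.34 against 9.59, 9.68 and 9.81; both are named here after their values were seen. No subunit or stalk gene was called higher after quantile normalization, cyclic loess or normexp, without scaling or in the authors' deposited table.

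Different probes of a gene gave different values. Over 171 measured probes of the 173, 168 had a positive value, against 62% of all probes, 1 was called higher, against 4.37%, and 1 lower, against 3.73%. The probe called higher was a second probe of Rpl36 (0.40 ± 0.09, adjusted p = 0.0447), while the probe that stands for the gene had 0.35. Of 52 genes with at least 2 measured probes, the brightest probe had the higher log2 fold change in 36, by a median of 0.06. In the 18 genes whose probes were at least 4 log2 units apart in signal, it was higher in 14, and the medians were 0.12 for the dim and 0.27 for the bright probes. In the 17 genes whose probes were less than 1 unit apart it was higher in 8. A factor common to all probes of an array cancels in these differences. An offset or a distortion that depends on signal does not, and neither was tested. In the authors' deposited table the brightest probe was higher in 22 of the 52 and in 6 of the 18.

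Single genes show the size of this, in the fit over all probes. Rps27a had -0.20 ± 0.18 at its dimmest probe and 0.39 ± 0.10 at its brightest, which were 12.02 units apart. Rpl22 had 0.07 ± 0.09 and 0.31 ± 0.09, and Rpl23 had 0.07 ± 0.09 and 0.35 ± 0.12. Rps3 went the other way, with 0.44 ± 0.11 at its dim and 0.18 ± 0.11 at its bright probe. Which transcripts the dim probes bind was not tested, and 321 symbols with a pseudogene ending, of 65 parent names, may share signal with the probes.

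**Figure D5:**
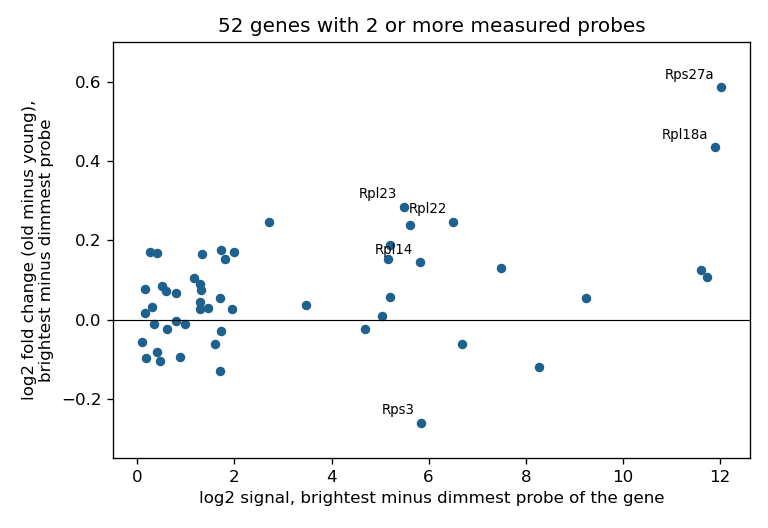
For 52 ribosomal protein genes with at least 2 measured probes, the difference in log2 fold change (old minus young) between the brightest and the dimmest probe, against their difference in log2 signal. Of the 18 genes with probes at least 4 units apart, 14 lie above 0, with Rps27a highest and Rps3 lowest.

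The genes that make, serve and control ribosomes were taken from lists, and few of them passed. Over all tested genes, for comparison, 62.6% had a positive value, the median was 0.08, 4.38% were called higher and 4.01% lower. Of 25 tested non-ribosomal products of TOP messages, which encode elongation factors and other proteins of translation, 23 had a positive value with a median of 0.17, none was called higher and 1 lower. That gene was Vim, the intermediate filament protein vimentin, with 2.42, 2.69 and 3.44 in young and 1.44, 1.04 and 0.89 in old samples (-1.73 ± 0.29, adjusted p = 0.0290). Its old arrays were all below its young arrays, and its adjusted p ran from 0.0444 to 0.0902 when 1 sample was left out, and it missed the threshold when young replicate 2 (0.0817) or either old replicate 2 (0.0888) or 3 (0.0902) was absent. Eef1d, a subunit of the elongation factor that reloads Eef1a, had 0.35 ± 0.09 (adjusted p = 0.0606). The list's median was -0.02 after quantile normalization, -0.01 in the authors' deposited table and -0.28 without scaling.

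Of 31 initiation factors 23 had a positive value, with a median of 0.12 that was -0.01 after cyclic loess and -0.33 without scaling, and 1 was called. Eif2s3x, the X-linked gamma subunit of the factor that brings the initiator tRNA, gave 2.26, 2.47 and 2.38 in young and 2.97, 3.04 and 3.31 in old samples, with no overlap. It was higher in old samples by 0.74 ± 0.12 (limma adjusted p = 0.0277). The value was 0.66 to 0.71 under the other scalings, 0.63 with normexp and 0.29 without scaling (adjusted p = 0.347). The call was lost without any sample other than old replicate 1, with an adjusted p of 0.0600, 0.0771 and 0.0703 without young replicates 1 to 3 and of 0.0780 and 0.0745 without old replicates 2 and 3. Eif1a, a factor of start codon scanning, had 0.41 ± 0.10 (adjusted p = 0.0609).

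RNA polymerase I makes the ribosomal RNA. Of its 14 tested subunits and factors 13 had a positive value, with a median of 0.17, which was 0.09 to 0.14 with the other scalings and -0.28 without scaling. Taf1b, a subunit of its promoter selectivity factor, gave -2.18, -2.03 and -2.07 in young and -1.54, -1.66 and -1.50 in old samples (0.53 ± 0.09, adjusted p = 0.0290). Twistnb, a subunit of the polymerase, gave 2.99, 3.21 and 2.91 against 3.58, 3.67 and 3.97 (0.71 ± 0.14, adjusted p = 0.0374). Both were called higher, without overlap of the groups. Neither call held when any 1 of the 6 samples was left out, with adjusted p from 0.0598 to 0.0894 for Taf1b and from 0.0523 to 0.102 for Twistnb. Taf1b did not pass in the authors' deposited table (adjusted p = 0.0550) or after cyclic loess (adjusted p = 0.0544), and Twistnb with the mean of all its probes had 0.36 (adjusted p = 0.0648). Ubtf, which opens the ribosomal DNA, had 0.27 ± 0.11 (adjusted p = 0.157), and Polr1a, the largest subunit, 0.24 ± 0.11 (adjusted p = 0.225).

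Assembly in the nucleolus was covered by 56 tested genes, of which none was called and 50 had a positive value, with a median of 0.16. It was 0.069 after quantile normalization, 0.074 in the authors' deposited table and -0.29 without scaling. After cyclic loess it was 0.058, with 36 of 56 positive, against 11437 of all 23266 genes. With normexp 2 of the 56 were called higher, where 9.98% of all genes were. The smallest p-values belonged to Fbl, the methylase fibrillarin, with 5.21, 5.33 and 5.26 in young against 5.55, 5.76 and 5.71 in old samples (0.40 ± 0.09, adjusted p = 0.0505). Utp4, a factor of early small subunit processing, gave 3.23, 3.52 and 3.31 against 3.76, 3.83 and 3.77 (0.43 ± 0.10, adjusted p = 0.0537). In both genes the groups did not overlap. Of the 18 late maturation and export factors none was called, and the median was 0.09, or -0.02 after cyclic loess, -0.0023 in the authors' deposited table and -0.36 without scaling. Eif6, which keeps the subunits apart, had 0.33 ± 0.08 (adjusted p = 0.0583), and Mrto4, which holds the place of the stalk during assembly, 0.30 ± 0.08 (adjusted p = 0.0749).

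The 26 tested growth pathway regulators had a median of -0.03, with 9 positive and none called. The median was -0.10 after quantile normalization, -0.13 after cyclic loess, -0.12 in the authors' deposited table and -0.48 without scaling. With normexp 3 of the 26 were called lower, where 1043 of all 23266 genes were. Without scaling 2 were, where 2307 of all 23266 were. Mtor, the kinase of the growth pathway, gave -0.05, 0.16 and -0.01 in young and -0.16, -0.15 and -0.41 in old samples (-0.28 ± 0.11, adjusted p = 0.164). Larp1, which binds TOP messages, had -0.03 ± 0.11, Myc -0.03 ± 0.17 and Rps6kb1, an S6 kinase, -0.01 ± 0.11. Each of the last 3 values was smaller than its SE, so that no direction can be given. Rps6kb2, the other S6 kinase, had -0.39 ± 0.11 (adjusted p = 0.0774) and Larp4, an RNA-binding protein, 0.30 ± 0.09 (adjusted p = 0.106). Of 16 genes of ribosomal stress and turnover none was called and the median was -0.0019. It was -0.07 after quantile normalization, -0.09 after cyclic loess, -0.07 in the authors' deposited table and -0.45 without scaling. Of the 16, 1 was called higher under normexp, where 9.98% of all genes were, and 1 lower without scaling, where 2307 of all 23266 were. Trp53, which is stabilised when ribosome assembly fails, gave 0.56, 0.93 and 0.51 against 1.12, 1.22 and 1.25 (0.53 ± 0.13, adjusted p = 0.0628). Cdkn1a, its target that arrests the cell cycle, had -0.48 ± 0.15 (adjusted p = 0.0986), which became 0.12 under normexp.

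Markers of several other cell types were called lower in old samples, where 4.01% of all tested genes were called lower and 4.38% higher. Of 11 tested pan-leukocyte markers 8 were called lower in old samples, with a median of -1.60. The summed signal of the 12 on the array, in multiples of the 75th percentile, was 104 to 190 in young and 53.3 to 63.1 in old samples. All sums here include the listed genes on the array that were not tested. Of 11 B cell markers 6 were lower, with sums of 35.3 to 69.1 and 6.37 to 14.2, and of 8 monocyte and macrophage markers 6 were lower, with sums of 20.1 to 44.4 and 8.88 to 12.8. Of 12 neutrophil markers 3 were lower, with sums of 1643 to 2559 and 1064 to 1373. Of 11 erythroid markers none was called, with 5 positive and sums of 1526 to 2026 and 1913 to 2169. Of 10 tested mesenchymal and stromal markers 1 was higher and 2 were lower, and 6 had a negative value, with a median of -1.13. The sums, over 17 genes, were 29.3 to 32.6 in young and 41.6 to 47.7 in old samples, and bright genes weigh most in them. The marker called higher was Lepr, the brightest of the 10 (1.03 ± 0.15, limma adjusted p = 0.0249). It gave 3.74, 3.43 and 3.55 in young and 4.42, 4.56 and 4.85 in old samples. The 2 called lower were Cxcl12 (-2.38 ± 0.43, limma adjusted p = 0.0320) and Thy1 (-1.54 ± 0.33, adjusted p = 0.0430). Among osteoblast markers 1 was higher and 3 were lower of 7, among T and NK cell markers 2 and 2 of 10, and among endothelial markers 1 and none of 4. In these bulk samples, fewer cells of a type and less RNA per cell cannot be told apart, and the part of cell composition in the values of the ribosomal protein genes, of Rps4l and of Vim was not tested.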

How the data were processed

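The 6 arrays are Agilent 1-colour arrays of total RNA labelled with pCp-Cy3, per the labels' protocols. The spot intensities are, per the file headers, processed signals of Agilent Feature Extraction 10.7.3.1, background-subtracted and not scaled between arrays, whereas version 10.5.1.1 stands in the submitters' processing notes. A log2 table of 52095 probes, deposited by the authors, served as an alternative; how it was scaled is not stated in the labels or headers.

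Control spots and spots marked as outliers were left out, and repeated spots averaged on the log2 scale. Each value is the log2 intensity minus the array's 75th percentile. Symbols came from a RefSeq gene table (GRCm38.p6) by accession without version, which matched 26413 probes (47.4%); other gene names are the identifiers in the files. The probe design is on another build, so coordinates are given only for promoters. A gene is represented by its probe with the highest mean over 6 arrays, and was tested if 3 or more arrays, of either age, had it well above background, which left 23266 genes. No spot of the family was saturated. Group sizes of 3 limit the precision.

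The ages were compared by limma (version 3.58.1, R 4.3.3; lmFit and eBayes), with Benjamini-Hochberg adjustment over all tested genes at 0.05; tables were made with Python 3.11.15 and pandas 2.3.3. A ± gives the standard error of a log2 fold change. The steps were tested on simulated data. The alternatives were other scalings, normexp (offset 50), dim-probe filters, the mean of all probes, an intensity trend, the replicate number as a block and each sample left out. The files hold no mean signal, so normexp used the median spot and background signals.

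The ribosomal protein genes and all lists were chosen with earlier results of these data known. Named genes are those past the threshold, the copies and their parents, a list by role, the 3 largest and the 3 smallest fold changes, the 2 smallest p-values of each companion list and Myc, Mtor, Larp1, Ubtf, Polr1a and Rps6kb1; others are said to be outside this rule. One gene of the list by role is not reported here.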

Additional observations from a re-analysis of the deposited data

How the results depend on the processing

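The ribosomal protein genes called higher, none with the main settings, were 1 with normexp, 3 with genes well above background on all 6 arrays and 48 with an intensity trend. The 1 called lower was lost (0 called) without the filter on dim probes and with the replicate block, and leaving out a sample gave 0 called higher and 0 to 1 lower. Their median, 0.27, was 0.23 to 0.32 with a sample left out, -0.18 without scaling (an alternative chosen after seeing the data, as was the deposited table for probe pairs), 0.0033 after quantile normalization, 0.0042 in the authors' deposited values, 0.069 after cyclic loess and 0.19 with normexp.

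Of all tested genes 1020 were called higher and 933 lower. The counts were 27 and 2307 without scaling, 647 and 896 after cyclic loess, 2323 and 1043 with normexp, 597 and 934 in the authors' deposited table and 2155 and 1400 with an intensity trend. Calls higher were 52.2% of all calls, 39.0% in the authors' table, 41.9% after cyclic loess, 69.0% with normexp, 63.2% with genes measured on all 6 arrays, 60.6% with the trend and 1.16% without scaling. No gene was called without the filter (limma; 11933 at an unadjusted p under 0.05) or with the replicate block (limma; 5683). With a sample left out 0 to 643 genes were called higher and 0 to 619 lower; it was 16 and 56 without young replicate 2, 80 and 225 without young replicate 3, 0 and 1 without old replicate 2 and 0 and 0 without old replicate 3 (limma; 5128 at an unadjusted p under 0.05). Deviations of samples with the same replicate number correlated at -0.03, 0.02 and -0.01 across genes, and no sample correlated best with its own number. With 3 samples a group, this cannot decide whether the numbers pair the samples.

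Without scaling, summarised here for the family only, 2 of the 84 ribosomal protein genes were positive, against 2449 of all 23266 genes. In that setting Rplp0 was at -0.17, Rps27a at -0.058 and Rps4x at -0.31. Of 53 named genes, those that changed sign under the settings below were as follows. After quantile normalization the values were Rpl10 -0.11, Rpl11 -0.030, Rpl22l1 -0.074, Rpl3 -0.098, Rpl36a -0.070, Rpl5 -0.12, Rpl7 -0.029, Rplp0 -0.034, Rps26 -0.061, Rps27 -0.029, Rps27l -0.068, Rps3 -0.046, Rps4x -0.062 and Rps6 -0.11. After cyclic loess the values were Rpl10 -0.042, Rpl22l1 -0.047, Rpl3 -0.048, Rpl36a -0.049, Rpl5 -0.11, Rpl7l1 -0.027, Rps27l -0.046, Rps4x -0.034 and Rps6 -0.049. In the authors' deposited table the values were Rpl10 -0.12, Rpl22l1 -0.067, Rpl3 -0.10, Rpl36a -0.090, Rpl5 -0.14, Rpl7 -0.023, Rpl7l1 -0.036, Rplp0 -0.020, Rps26 -0.026, Rps27l -0.061, Rps3 -0.042, Rps4x -0.071 and Rps6 -0.11. With normexp the values were Cdkn1a 0.12 and Rpl5 -0.028. With the mean of all probes the values were Larp1 0.11 and Rps6kb1 0.094. With a sample left out, the values were -0.085 to 0.062 for Larp1, -0.19 to 0.058 for Myc, -0.034 to 0.14 for Rpl7l1 and -0.091 to 0.066 for Rps6kb1. Leaving out saturated probes changed nothing, since there were none. The 3 samples a group and the dim signal of Rpl10l, Rpl39l and Rpl3l limit what could be detected.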
